A study of Mus musculus with 26 samples.

Results

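The genes described here are 35 mouse genes whose transcripts accumulate when a cell responds to type I interferon, followed across 26 RNA-seq libraries of regulatory and conventional CD4+ T cells from lymph nodes and spleen. They were chosen by symbol from the table of read counts, which lists 24411 genes. The choice used no measured value directly, but it was made with earlier results of these data known. All 35 have reads and all 35 passed the expression filter that left 12227 genes for testing. All mice were C57BL6/J and carried a reporter at the Foxp3 locus. Regulatory T cells (Treg, marked by the transcription factor Foxp3) could thus be sorted by a surface hCD2 tag or, in the groups named YFP, by YFP. There are 13 groups of 2 libraries, and the labels give no ages and name no animals, so a group's libraries may or may not come from separate mice.

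The groups were as follows. BATFKO Treg (CD4+hCD2+ cells of Foxp3-IRES-hCD2 mice with Batf-/-, a loss of the transcription factor BATF in every cell of the animal) were set against WT Treg of Foxp3-IRES-hCD2 mice. BATFcKO Treg YFP (CD4+YFP+hCD2- cells of mice with Foxp3-IRES-YFPCre and Foxp3-IRES-hCD2 alleles and Batf flox/flox, so that Cre is made where the Foxp3 locus is active) were set against WT Treg YFP, which carry the same 2 Foxp3 alleles, Cre included. Foxp3R397W Treg (a Foxp3R397W-IRES-hCD2 allele that encodes a substituted Foxp3 protein) and Foxp3KO Treg (a Foxp3fs101-IRES-hCD2 allele with a frameshift) each had their own controls with a Foxp3WT-IRES-hCD2 allele. Mice of these 4 groups also carried a Foxp3-IRES-GFP allele, and the CD4+hCD2+GFP- cells were taken, so the same animals also held cells that used the Foxp3-IRES-GFP allele. From Foxp3-IRES-hCD2 mice came the CD4+ populations of effector Treg (eTreg, hCD2+CCR7loCD62Llo), central Treg (cTreg, hCD2+CCR7hiCD62LhiCD44lo), effector conventional cells (Teff, hCD2-CCR7loCD62Llo), naive conventional cells (Tnaive, hCD2-CCR7hiCD62LhiCD44lo) and bulk conventional cells (Tconv, CD4+hCD2-, which the titles call Tconv and the cell type label calls Treg).

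Type I interferons bind a receptor made of the Ifnar1 and Ifnar2 chains, whose kinases Jak1 and Tyk2 phosphorylate signal transducers such as Stat2. Stat2 and Irf9 belong to the ISGF3 complex, which binds a DNA element called the interferon-stimulated response element (ISRE) in the promoters of the response genes. Interferon gamma acts mainly through a different element, the gamma-activated site (GAS). Many response genes also have a basal level in T cells without infection, and several are reached by both kinds of interferon.

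The libraries hold 5615929 to 34613707 counts each. The label checks on the targeted genes gave 7.22 and 6.83 CPM of Batf in BATFKO Treg, against 46.1 and 82.9 CPM in WT Treg, and 19.5 and 15.9 CPM in BATFcKO Treg YFP, against 67.8 and 58.5 CPM in WT Treg YFP (CPM, a gene's counts relative to the TMM-scaled library total). Foxp3 had 109 and 113 CPM in Foxp3KO Treg, against 348 and 326 CPM in their controls, and at most 4.07 CPM in Tconv, Teff and Tnaive libraries. Summed CPM of 7 T cell markers ran from 4210 to 5850 over the 26 libraries. The 2 libraries of BATFKO Treg, of WT Treg and of Tconv differed more than those of other groups, with 29.9, 22.7 and 21.7 as chi-square over its degrees of freedom, against 3.0 to 7.79 elsewhere.

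Promoter sequences are shown for 7 members that differ in how they behaved below: Oas1a, called in 5 comparisons, Oas3 and Eif2ak2, which rose in Teff, Ifit2 and Oasl1, which fell in eTreg and in Teff, Igtp, which rose in BATFKO Treg, and Isg15, called in none. Each is the RefSeq window on GRCm38.p6 of 250 bases before and 50 bases after the annotated start, written 5′ to 3′ on the strand of the gene, with capitals for every match to the ISRE core, which is GAAA, any 2 bases and GAAA, or TTTC, any 2 bases and TTTC on the other strand.
Oas1a, chr5:120907476-120907775, minus strand: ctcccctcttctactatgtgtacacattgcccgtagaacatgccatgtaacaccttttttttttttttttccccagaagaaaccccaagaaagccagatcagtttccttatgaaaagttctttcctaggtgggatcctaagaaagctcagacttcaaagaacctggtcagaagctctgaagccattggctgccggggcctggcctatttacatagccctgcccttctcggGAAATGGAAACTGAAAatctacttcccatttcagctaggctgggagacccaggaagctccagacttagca
Oas3, chr5:120777610-120777909, minus strand: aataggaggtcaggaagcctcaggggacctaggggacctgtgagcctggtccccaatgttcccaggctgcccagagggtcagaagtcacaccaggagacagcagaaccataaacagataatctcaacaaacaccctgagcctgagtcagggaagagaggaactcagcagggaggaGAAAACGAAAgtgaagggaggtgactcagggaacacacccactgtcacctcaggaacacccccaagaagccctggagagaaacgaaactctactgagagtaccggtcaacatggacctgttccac
Eif2ak2, chr17:78882523-78882822, minus strand: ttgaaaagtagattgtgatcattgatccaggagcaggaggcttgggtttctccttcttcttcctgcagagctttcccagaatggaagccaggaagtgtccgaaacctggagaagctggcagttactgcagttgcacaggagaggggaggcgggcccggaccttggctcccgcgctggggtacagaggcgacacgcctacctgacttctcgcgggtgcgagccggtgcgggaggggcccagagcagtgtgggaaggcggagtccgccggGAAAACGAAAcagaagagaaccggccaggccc
Ifit2, chr19:34550444-34550743, plus strand: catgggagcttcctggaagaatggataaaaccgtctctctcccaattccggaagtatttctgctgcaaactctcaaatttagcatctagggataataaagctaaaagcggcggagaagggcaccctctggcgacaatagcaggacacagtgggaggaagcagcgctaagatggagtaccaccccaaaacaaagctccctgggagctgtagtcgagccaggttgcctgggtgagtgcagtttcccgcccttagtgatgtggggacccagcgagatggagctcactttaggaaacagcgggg
Oasl1, chr5:114922990-114923289, plus strand: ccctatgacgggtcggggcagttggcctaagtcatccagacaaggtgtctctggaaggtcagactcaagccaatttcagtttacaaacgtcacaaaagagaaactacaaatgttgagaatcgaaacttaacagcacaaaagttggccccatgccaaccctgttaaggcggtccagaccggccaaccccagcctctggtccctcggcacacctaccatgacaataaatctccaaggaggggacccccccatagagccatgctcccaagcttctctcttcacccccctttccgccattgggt
Igtp, chr11:58199306-58199605, plus strand: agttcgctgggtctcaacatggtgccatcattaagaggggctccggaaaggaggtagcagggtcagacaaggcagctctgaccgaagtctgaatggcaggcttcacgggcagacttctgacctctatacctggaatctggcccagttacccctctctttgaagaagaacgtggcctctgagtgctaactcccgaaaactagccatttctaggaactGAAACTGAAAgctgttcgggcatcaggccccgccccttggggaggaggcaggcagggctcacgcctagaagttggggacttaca
Isg15, chr4:156200769-156201068, minus strand: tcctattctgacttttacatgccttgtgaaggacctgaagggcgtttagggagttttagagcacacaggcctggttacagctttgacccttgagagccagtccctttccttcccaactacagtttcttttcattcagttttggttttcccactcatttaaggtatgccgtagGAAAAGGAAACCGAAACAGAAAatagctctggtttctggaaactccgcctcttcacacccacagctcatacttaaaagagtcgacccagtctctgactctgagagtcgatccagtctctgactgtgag

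Isg15 holds 3 overlapping cores that begin at -78, -72 and -66 from the start, Oas1a holds 2 that overlap and begin at -20 and -14, and the cores of Oas3, Igtp and Eif2ak2 begin at -75, -34 and 18. The windows shown for Ifit2 (the first of its 2) and Oasl1 hold none. RefSeq windows were matched for 24 of the 35 members. An ISRE core on either strand was found for 15 of these 24 genes (62.5%), against 3.99% of 27025 genes with a window. The GAS pattern TTCNNNGAA, which is its own reverse complement, was found for 7 of 24 (29.2%), against 9.55% of all genes. The pattern TGANTCA is a loose form of the site TGACTCA or TGAGTCA, which AP-1 factors such as BATF with JUN partners bind. It was likewise found for 7 of 24 (29.2%), against 8.97%, and the windows of Oas3 hold it at -109 and -54. Ifit3 and Trim30a matched only as TGATTCA and TGAATCA. Windows of Zbp1, Mx1, Mx2, Oas2, Usp18, Parp9, Parp14, Dhx58, Iigp1, Ifi27l2a and Rtp4 were not used here. Letters that match describe the window and are not measured binding sites.

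All members were transcribed in every library, and their basal levels differed widely. Per kilobase of exon (GENCODE M21), the highest mean level over the libraries was that of Ifi27l2a (a small hydrophobic protein of the Ifi27 family; chr12:103442167-103443680, minus strand) at 468 CPM per kb, and that of Igtp, a GTPase that acts on vacuoles of intracellular pathogens (chr11:58199556-58207591, plus strand), was 104 CPM per kb. The lowest was that of Ifi44 at 0.473 CPM per kb. The gene that varied most between groups was Oas2 (2'-5' oligoadenylate synthetase 2, which makes the activator of RNase L; chr5:120730333-120749853, minus strand), with a group mean of 3.98 CPM in eTreg and 87.6 CPM in Tconv, a 22.0-fold range. The eTreg and Tconv groups belong to different sets of libraries, so cell type and set cannot be told apart in this range. Among eTreg, cTreg, Teff and Tnaive, the highest group mean of Oas2 was 63.0 CPM, in Tnaive. Mx1 (a dynamin-like GTPase against influenza viruses, whose C57BL/6 allele makes no working protein; chr16:97447035-97462907, minus strand) had a group mean of 39.2 CPM in Teff and of 4.23 CPM in Tnaive, a 9.27-fold range. The narrowest range of group means was that of Parp9, an ADP-ribosyltransferase gene, at 1.39-fold.

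**Figure D1:**
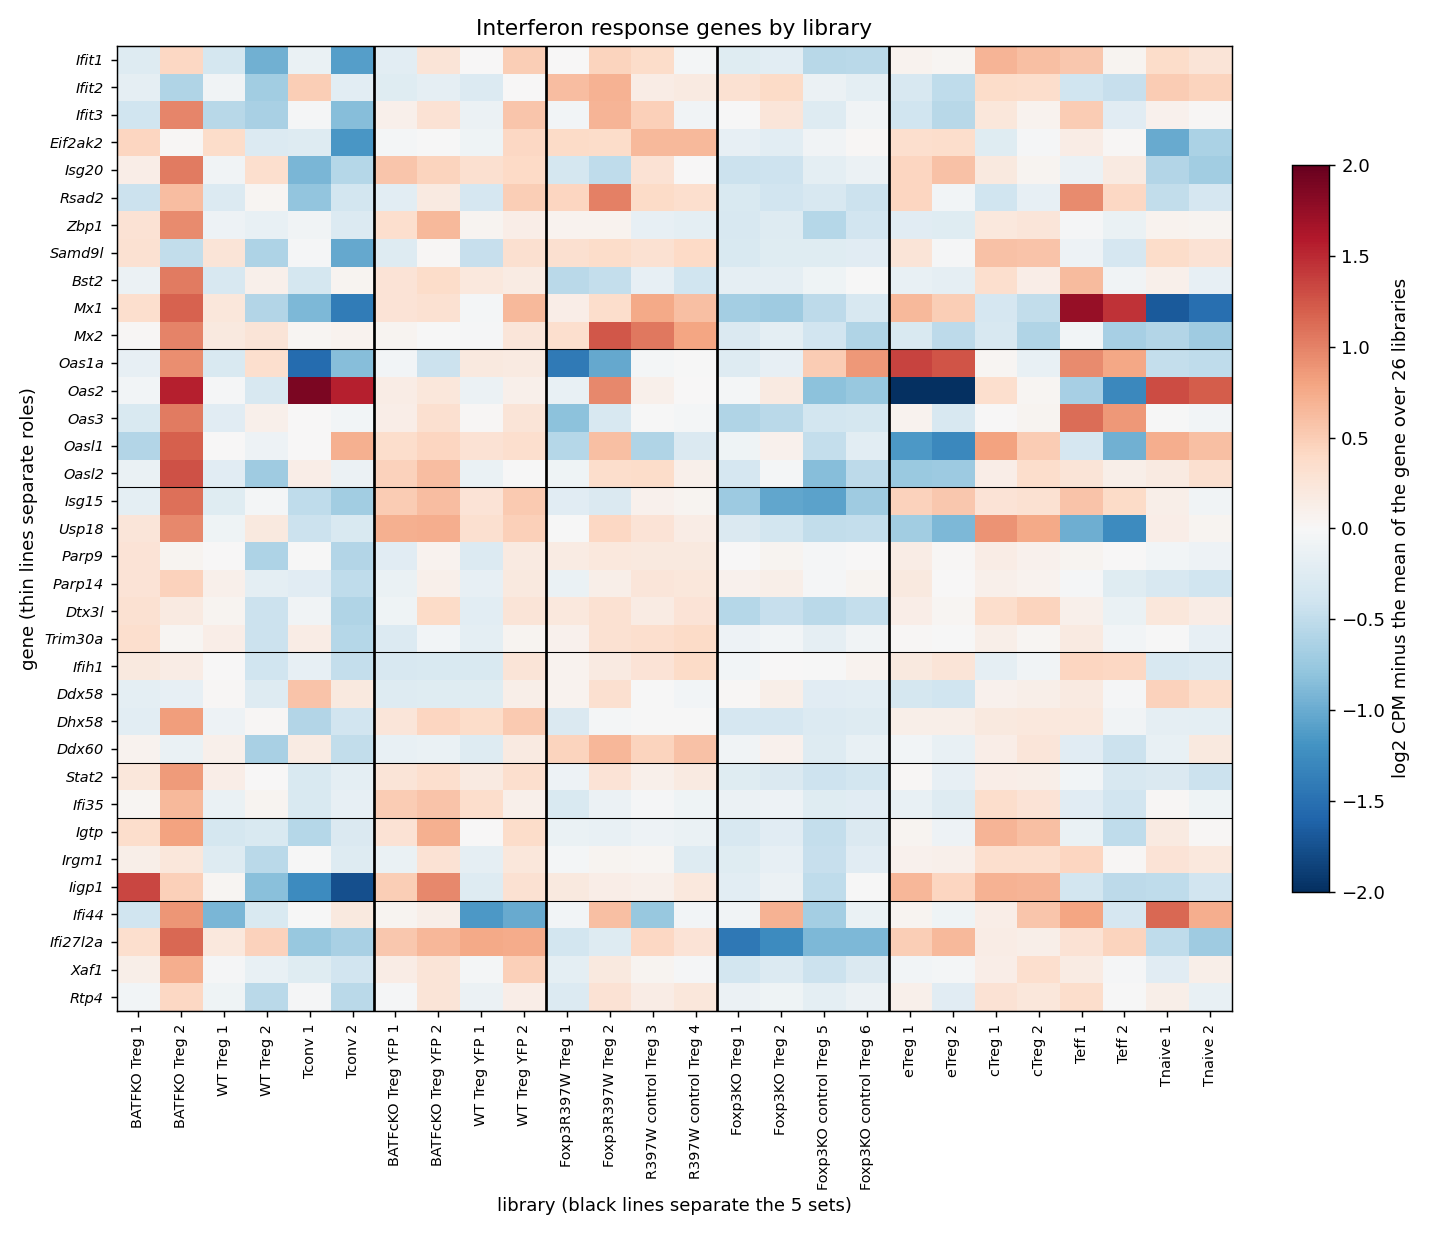
Level of each of the 35 genes (rows, grouped by role) in each of the 26 libraries (columns, grouped in 5 sets), as log2(CPM + 0.1) minus the gene's mean over all libraries, with the colour scale ended at 2 in either direction. Most rows of BATFKO Treg library 2 are red, and Oas2, Mx1 and Oas1a show the strongest colours among the sorted populations, where Oas2 is lowest in eTreg and Mx1 highest in Teff.

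In BATFKO Treg most members had higher mean levels than in WT Treg, to a degree that depended on BATFKO library 2, and 3 passed the test. Of 35 members, 33 had a positive log2 fold change in BATFKO Treg against WT Treg, with a median of 0.50, against a median of 0.00 over all tested genes. The median was 0.13 with only the libraries numbered 1 of BATFKO Treg, WT Treg and Tconv, and 0.78 with only those numbered 2. These 2 alternatives were chosen after seeing the data. Called genes (edgeR adjusted p below 0.05) were Igtp, Zbp1 and Iigp1, all higher, which is 8.57% of members against 2.69% of all genes tested in this comparison (1.05% higher and 1.64% lower). A further 19 members reached an unadjusted p below 0.05 but not the adjusted threshold, 22 in all (62.9%, against 11.9% of all genes). The counts move with the fit: on the 4 libraries alone edgeR called 0 members and 0 of 11109 genes, with 4 members at an unadjusted p below 0.05, DESeq2 called 6 members, and with no expression filter edgeR called 7. All-gene counts of the DESeq2 and unfiltered fits are not given here. A block for library number called more members than any of these fits. Its counts stand in the closing section, because the labels do not say what a number marks.

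Among the immunity-related GTPases, which disrupt vacuoles around intracellular parasites and bacteria, Igtp had 260.5 and 357 CPM in BATFKO Treg libraries 1 and 2, against 159.6 and 165 CPM in WT Treg libraries. Both BATFKO libraries lay above both WT libraries, and Igtp rose by 0.93 ± 0.17 on the log2 scale (SE, n = 2 each; edgeR adjusted p = 0.0029). Iigp1, a GTPase of the same family, had 178 and 98.6 CPM in BATFKO Treg, against 72.2 and 39.5 CPM in WT Treg, a rise of 1.30 ± 0.28 (edgeR adjusted p = 0.011). Library 1 was the higher one in both groups, although for most members library 2 was the higher BATFKO library. Irgm1, the third GTPase, had 135 and 145 CPM in BATFKO Treg, against 105 and 86.1 CPM in WT Treg, and was not called. Zbp1, a sensor of Z-form nucleic acid that starts necroptosis, had 181 and 284 CPM in BATFKO Treg, against 136 and 133 CPM in WT Treg, and rose by 0.78 ± 0.15 (edgeR adjusted p = 0.0046).

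The members with the largest changes among those not called were Oasl2, Oas2 and Ifit3, and for each of them the size came from one BATFKO library. Oas2 had 25.4 and 77.8 CPM in BATFKO Treg, against 25.97 and 21.0 CPM in WT Treg, so BATFKO library 1 lay within the WT values (log2 fold change 1.12 ± 0.37, edgeR adjusted p = 0.15). Oasl2, an oligoadenylate synthetase-like gene, had 15.6 and 41.8 CPM in BATFKO Treg, against 14.7 and 10.4 CPM in WT Treg (1.17 ± 0.31, edgeR adjusted p = 0.054). Ifit3, whose human counterpart binds IFIT1, had 10.6 and 27.5 CPM, against 9.52 and 8.92 CPM in WT Treg (1.02 ± 0.39, edgeR adjusted p = 0.24). BATFKO library 2 stood apart in the same way for the list as a whole. Relative to each gene's mean over all libraries, the median member was at 0.81 (log2) in that library, against -0.38 to 0.29 in the other libraries. Between the 2 BATFKO libraries 23 of 35 members differed by more than 1.5-fold, against 30.3% of all genes tested, and 26 members were higher in library 2. When libraries were left out, the median member change was 0.20 without BATFKO library 2 and 0.83 without BATFKO library 1, against -0.01 and -0.02 over all tested genes. It was 0.60 without WT library 1 and 0.49 without WT library 2. Iigp1 lost its call without BATFKO library 1 (0.83, adjusted p = 0.14) and without WT library 2 (0.94, adjusted p = 0.17), Zbp1 lost it without BATFKO library 2 (0.43, adjusted p = 0.071) and without WT library 2 (0.76, adjusted p = 0.052), and Igtp kept its call without any 1 of the 4 libraries, by edgeR in each case. Igtp, Zbp1 and Iigp1 lost their calls in the fit on the 4 libraries alone, and Igtp and Zbp1 lost theirs when only the libraries numbered 1 of BATFKO Treg, WT Treg and Tconv were used. Markers of other cells also differed. Plasmacytoid dendritic cell markers, of which 0 of 13 were called, summed to 250 and 289 CPM in BATFKO Treg, against 262 and 290 CPM in WT Treg, and stromal markers to 8.02 and 9.0 CPM, against 2.31 and 4.46 CPM in WT Treg. CD8 T and NK cell markers summed to 52.9 and 50.8 CPM in BATFKO Treg, against 31.4 and 35.4 CPM in WT Treg, and B cell markers to 21.5 and 17.8 CPM, against 13.6 and 14.4 CPM in WT Treg. Called markers, all higher in BATFKO Treg by edgeR, were Nkg7 of NK and CD8 T cells (1.02 ± 0.21, adjusted p = 0.0074), the stromal Fn1 (3.87 ± 0.57, 0.00062) and Xcr1 of conventional dendritic cells (2.83 ± 0.56, 0.0063). Fn1 alone had 6.41 and 7.16 CPM of the stromal sums in BATFKO Treg. Other markers of the same lists went the other way and were not called. Klrb1c had 1.2 and 0.5 CPM in BATFKO Treg, against 2.04 and 1.49 CPM in WT Treg. Col1a1 had 0.802 and 1.17 CPM, against 1.5 and 2.81 CPM, and Itgam 1.74 and 1 CPM, against 3.4 and 2.48 CPM. The part of other cells in the member values was not tested.

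When BATF was deleted by Cre made from the Foxp3 locus, no member was called by edgeR, against 2.04% of all genes (0.319% higher and 1.72% lower), and none by DESeq2, while 4 members had an unadjusted p below 0.05 (11.4%, against 10.7% of all genes). The median member change was -0.03, with 17 members positive and 18 negative, and it turned to 0.19 without WT Treg YFP library 2, to 0.07 without BATFcKO library 1 and to -0.15 without WT Treg YFP library 1. The largest changes were again upward, and none passed the test. Ifi44, a cytoplasmic response gene of low level, had 2.76 and 2.89 CPM in BATFcKO Treg YFP, against 1.14 and 1.28 CPM in WT Treg YFP (log2 fold change 1.22 ± 0.58, edgeR adjusted p = 0.46). Iigp1 had 99.6 and 137 CPM in BATFcKO Treg YFP, against 59.3 and 86.9 CPM in WT Treg YFP, so the groups did not overlap (0.70 ± 0.27, edgeR adjusted p = 0.30). Oasl2 had 23.6 and 26.4 CPM, against 15.6 and 17.1 CPM in WT Treg YFP (0.62 ± 0.31, edgeR adjusted p = 0.51).

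The difference between the 2 deletions was tested in the same edgeR model. No member was called, and 0 of all 12227 genes (0%) were, although 8 members had an unadjusted p below 0.05 (22.9%, against 5.18% of all genes) and 34 of 35 had a larger change in the germline deletion, with a median difference of 0.48. The median over all tested genes was 0.02. The members share the same libraries, so 34 of 35 is no count of separate observations. DESeq2 called 0 members too, while a block for library number called some, as given in the closing section. The members that differed most were Ifit3 (1.07 ± 0.54, edgeR adjusted p = 0.97), Mx1 (0.97 ± 0.39, edgeR adjusted p = 0.89) and Ifit1 (0.95 ± 0.41, edgeR adjusted p = 0.92). The median difference was 0.14 without BATFKO library 2 and 0.76 without BATFKO library 1.

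**Figure D2:**
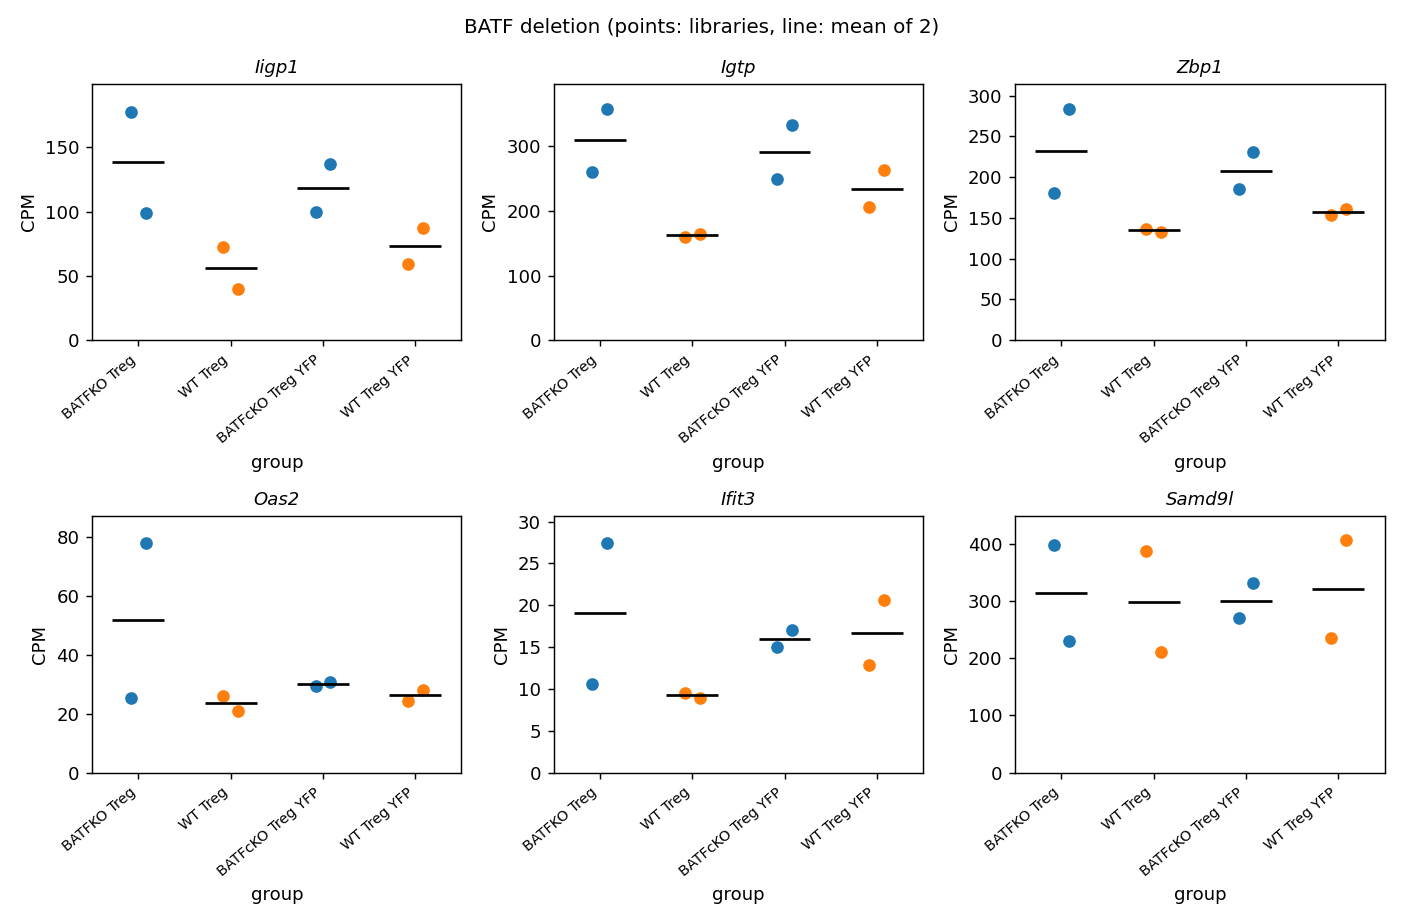
CPM of 6 members in BATFKO Treg, WT Treg, BATFcKO Treg YFP and WT Treg YFP (points, single libraries; lines, means of 2; blue, BATF-deleted; orange, control). For Iigp1, Igtp and Zbp1 both BATFKO points lie above both WT points, for Oas2 and Ifit3 one BATFKO point (77.8 and 27.5 CPM) lies far above the other, and for Samd9l the groups overlap.

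In the Foxp3 mutants the fit over all 26 libraries called 3 member changes, all downward. In Foxp3R397W Treg 2 members fell (5.71%, against 6.13% of all genes, 2.18% higher and 3.94% lower), and in Foxp3KO Treg 1 fell (2.86%, against 9% of all genes, 2.62% higher and 6.39% lower). The median member change was -0.02 in Foxp3R397W Treg and 0.07 in Foxp3KO Treg. In Foxp3R397W Treg it ran from -0.22 without mutant library 2 to 0.11 without mutant library 1, and in Foxp3KO Treg from 0.02 without control library 5 to 0.13 without control library 6. Fitted on the 4 libraries of a comparison alone, edgeR called 5 members in Foxp3R397W Treg, 1 higher and 4 lower, with 11.7% of all genes called, and 11 in Foxp3KO Treg, 6 higher and 5 lower, with 31.9% of all genes called. Oas1a, an oligoadenylate synthetase (chr5:120896256-120907521, minus strand), fell in both mutants. It had 4.63 and 6.15 CPM in Foxp3R397W Treg, against 12.2 and 12.5 CPM in their controls, a log2 fold change of -1.19 ± 0.33 (n = 2 each; edgeR adjusted p = 0.034). In Foxp3KO Treg it had 10.505 and 11.2 CPM, against 17.9 and 23.1 CPM in their controls, -0.92 ± 0.24 (edgeR adjusted p = 0.018). In both pairs the mutant libraries lay below both control libraries. Ifi27l2a fell in Foxp3R397W Treg, to 152 and 165 CPM, against 262 and 237 CPM in their controls (-0.65 ± 0.17, edgeR adjusted p = 0.030). In Foxp3KO Treg it had 73.0 and 81.9 CPM, against 106 and 105 CPM in their controls, which did not pass the test.

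Each of these calls was lost when certain single libraries were left out. In Foxp3R397W Treg, leaving out control library 3, control library 4, mutant library 1 or mutant library 2 ended both calls, with edgeR adjusted p of 0.15, 0.15, 0.27 and 0.10 for Oas1a and of 0.22, 0.087, 0.24 and 0.13 for Ifi27l2a. In Foxp3KO Treg the Oas1a call was lost without control library 6 (adjusted p = 0.26), mutant library 1 (0.15) or mutant library 2 (0.12), and was kept without control library 5. Among members not called, the largest changes were in Ifi44 (0.71 ± 0.51), Oasl1 (0.59 ± 0.44) and Isg20 (-0.58 ± 0.22) for Foxp3R397W Treg, and in Oas2 (0.86 ± 0.34), Ifi44 (0.75 ± 0.37) and Oasl2 (0.51 ± 0.27) for Foxp3KO Treg. Oas2 had 25.6 and 29.9 CPM in Foxp3KO Treg, against 14.9 and 15.6 CPM in their controls. In the test of the difference between the mutant effects no member was called by edgeR or DESeq2, against 0.0164% of all genes by edgeR, and 0 members had an unadjusted p below 0.05.

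**Figure D3:**
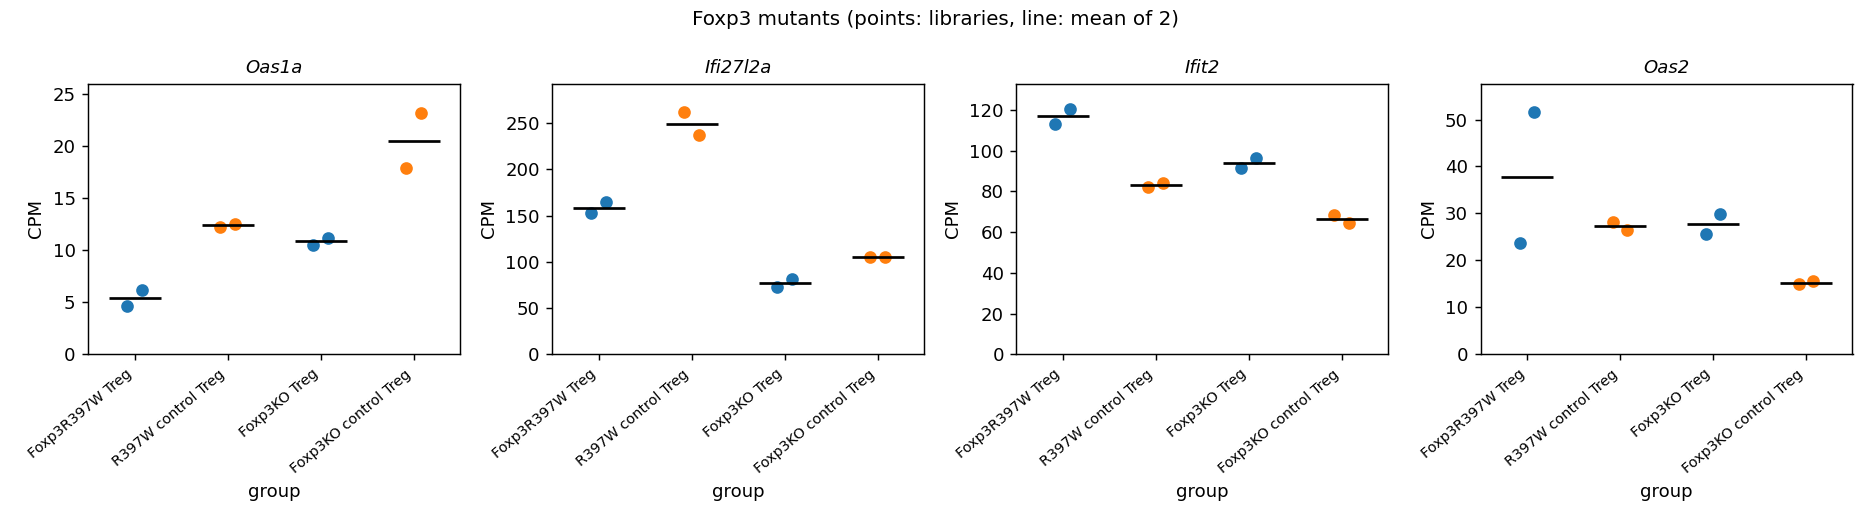
CPM of Oas1a, Ifi27l2a, Ifit2 and Oas2 in Foxp3R397W Treg, their controls, Foxp3KO Treg and their controls (points, single libraries; lines, means of 2; blue, mutant; orange, control). Oas1a is lower in each mutant than in its controls, and Ifit2 and Oas2, which were not called, show mutant means above control means.

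The largest movements of members were between effector and resting cells, and they went in both directions within one gene family. In eTreg against cTreg 11 of 35 members were called, 2 higher and 9 lower (31.4%, against 31.1% of all genes, 18.8% higher and 12.3% lower), with a median change of -0.28. In Teff against Tnaive 12 were called, 8 higher and 4 lower (34.3%, against 35.3% of all genes, 21.2% higher and 14% lower), with a median of 0.12. These shares are near those of all genes. Fitted on its own 4 libraries, eTreg against cTreg gave 26 members, 7 higher and 19 lower, with 49.8% of all genes called.

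The oligoadenylate synthetases make the activator of RNase L when they bind double-stranded RNA, an activity that Oasl1 lacks. Within this family Oas1a rose while Oas2 and Oasl1 fell. Oas1a had 32.1 and 30.2 CPM in eTreg, against 12.98 and 11.4 CPM in cTreg, a log2 fold change of 1.35 ± 0.26 (n = 2 each; edgeR adjusted p = 0.00041). In Teff it had 24.4 and 21.5 CPM, against 8.96 and 8.79 CPM in Tnaive, 1.37 ± 0.27 (edgeR adjusted p = 0.00045). In both pairs the effector libraries lay above the resting ones. Oas2 had 3.82 and 4.13 CPM in eTreg, against 33.1 and 27.1 CPM in cTreg, -2.92 ± 0.44 (edgeR adjusted p = 3.5e-05). In Teff it had 16.5 and 10.8 CPM, against 65.2 and 60.8 CPM in Tnaive, -2.21 ± 0.37 (edgeR adjusted p = 0.00010). Oas2 was thus the member with the largest fall in either comparison. Oasl1 had 4.59 and 4.13 CPM in eTreg, against 18.1 and 14.6 CPM in cTreg, -1.90 ± 0.42 (edgeR adjusted p = 0.0016). It also fell in Teff, to 8.11 and 5.20 CPM, against 17.1 and 15.7 CPM in Tnaive, -1.30 ± 0.40 (edgeR adjusted p = 0.015). Oas3, the long synthetase that favours long double-stranded RNA, was called in Teff and not in eTreg. It had 114 and 95.5 CPM in Teff, against 52.2 and 50.3 CPM in Tnaive, 1.03 ± 0.26 (edgeR adjusted p = 0.0046), while eTreg held 55.1 and 42.1 CPM, against 52.5 and 54.5 CPM in cTreg. The difference of these changes did not pass its own test (-1.17 ± 0.37, edgeR adjusted p = 0.085).

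Usp18, the protease that removes Isg15 from proteins and damps signalling at Ifnar2 (chr6:121245906-121270917, plus strand), fell in both effector populations. It had 25.1 and 21.8 CPM in eTreg, against 76.4 and 69.1 CPM in cTreg, -1.63 ± 0.18 (edgeR adjusted p = 1.2e-06). In Teff it had 20.7 and 17.0 CPM, against 44.6 and 42.2 CPM in Tnaive, -1.21 ± 0.19 (edgeR adjusted p = 4.4e-05). Its substrate Isg15 was not called in either comparison, with 33.4 and 35.1 CPM in eTreg, against 29.3 and 30.02 CPM in cTreg. Ifit2, a protein that binds viral RNA, had 59.5 and 52.0 CPM in eTreg, against 95.6 and 94.8 CPM in cTreg, -0.77 ± 0.19 (edgeR adjusted p = 0.0037). In Teff it had 56.1 and 53.6 CPM, against 105 and 101 CPM in Tnaive, -0.91 ± 0.19 (edgeR adjusted p = 0.00077). The neighbouring Ifit1 and Ifit3, which share its antiviral family, were not called in any of the 9 comparisons.

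Mx1 had 20.4 and 18.2 CPM in eTreg, against 10.2 and 9.11 CPM in cTreg, a log2 fold change of 0.99 ± 0.26 (edgeR adjusted p = 0.0067). In Teff it had 43.2 and 35.3 CPM, against 3.97 and 4.49 CPM in Tnaive, 3.21 ± 0.29 (edgeR adjusted p = 5e-08). It rose in both, and the rise was smaller in Treg: the difference of the 2 changes was -2.21 ± 0.39 (edgeR adjusted p = 0.0012). Mx1 was the only member called in that difference, which is 2.86% of members, against 5.42% of all genes. Fitted on its own 8 libraries, the difference gave 6 members, all lower, with 9.76% of all genes called. The related Mx2, also a dynamin-like GTPase, had 8.11 and 5.29 CPM in Teff, against 5.60 and 5.09 CPM in Tnaive, and was not called.

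The other members that fell in eTreg were Igtp (-0.66 ± 0.16), Ifi35, a partner of the Nmi protein (-0.52 ± 0.14), Ddx58, which encodes the RNA sensor RIG-I (-0.47 ± 0.13), Zbp1 (-0.47 ± 0.15) and Oasl2 (-0.98 ± 0.30), with edgeR adjusted p of 0.0042 to 0.020. Igtp had 211 and 190.2 CPM in eTreg, against 327 and 307 CPM in cTreg. Leaving out 1 library left 7 to 9 calls. Zbp1 lost its call without any 1 of the 4 libraries (adjusted p 0.062 to 0.087). Oasl2 lost it without cTreg library 2, eTreg library 1 or eTreg library 2 (0.11, 0.075 and 0.080), Mx1 without cTreg library 2 or eTreg library 1 (0.063 and 0.053), Ifi35 without cTreg library 1 or eTreg library 2 (0.057 and 0.069), and Ddx58 without cTreg library 2 (0.056). Ifit3 (-0.62 ± 0.36), Ifit1 (-0.59 ± 0.27) and Rsad2 (0.49 ± 0.31) had the largest changes among those not called.

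In Teff further members rose. Ifi27l2a had 239.9 and 266 CPM in Teff, against 138 and 120.3 CPM in Tnaive, 0.97 ± 0.17 (edgeR adjusted p = 0.00020). Ifih1, which encodes the RNA sensor MDA5, had 76.3 and 74.99 CPM, against 45.4 and 46.6 CPM in Tnaive, 0.72 ± 0.15 (edgeR adjusted p = 0.00073). Eif2ak2 encodes the kinase PKR, which stops translation when it binds double-stranded RNA. It had 62.1 and 56.8 CPM in Teff, against 27.9 and 36.1 CPM in Tnaive, 0.89 ± 0.23 (edgeR adjusted p = 0.0048). Rsad2, which encodes viperin, rose by 1.12 ± 0.31 (edgeR adjusted p = 0.0071), with 19.7 and 13.5 CPM in Teff, against 7.23 and 7.99 CPM in Tnaive. Isg20, an exonuclease gene, rose by 0.68 ± 0.21 (edgeR adjusted p = 0.017), with 27.7 and 33.9 CPM, against 20.0 and 18.4 CPM in Tnaive. In all of these the Teff libraries lay above both Tnaive libraries. Without 1 library there were 8 calls (without Tnaive library 1), 11 (without Tnaive library 2), 12 (without Teff library 1) or 10 (without Teff library 2). The losses were Eif2ak2 without Tnaive library 1 (adjusted p = 0.072), Rsad2 without Tnaive library 1 or Teff library 1 (0.057 and 0.097), Oasl1 without Tnaive library 1 or Teff library 2 (0.071 and 0.15), and Isg20 without Tnaive library 1, Tnaive library 2 or Teff library 2 (0.053, 0.11 and 0.15). Ifi44 (-0.64 ± 0.40), Samd9l (-0.54 ± 0.30) and Isg15 (0.46 ± 0.25) had the largest changes among those not called. The median turned to -0.04 without Teff library 1.

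Many markers of other cells were higher in Teff, and some were lower. Of 13 markers of plasmacytoid dendritic cells, which make type I interferon in quantity, 10 were called higher in Teff against Tnaive, and their summed level was 758 and 353 CPM in Teff, against 162 and 180 CPM in Tnaive and 162 to 349 CPM over all libraries other than Teff. Siglech, a defining marker, had 92.3 and 20.0 CPM in Teff, against 0.102 and 0 CPM in Tnaive. Of 13 tested myeloid and conventional dendritic cell markers 10 were also higher, with the 16 listed ones summing to 290 and 138 CPM in Teff, against 47.5 and 49.3 CPM in Tnaive, and 10 CD8 T and NK cell markers summed to 426 and 315 CPM, against 67.2 and 71.6 CPM in Tnaive. B cell markers summed to 11.8 and 9.12 CPM in Teff, against 9.47 and 9.79 CPM in Tnaive. Some markers of the lists that rose in sum were lower in Teff. Cd8b1 had 7.13 and 6.48 CPM, against 17.6 and 20 CPM in Tnaive, and Prf1 19.8 and 16.5 CPM, against 44.4 and 45.7 CPM. Itgam had 2.93 and 2.37 CPM, against 6.62 and 7.19 CPM in Tnaive, and Pacsin1 99.5 and 109 CPM, against 118 and 135 CPM. Siglech was much higher in Teff library 1 than in library 2, and only 2 of the 35 members were higher in library 2. Bst2 is both a member and a marker of these cells, with 94.8 and 58.4 CPM in Teff, against 65.8 and 54.4 CPM in Tnaive. The part of such cells in the member values of Teff was not tested.

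**Figure D4:**
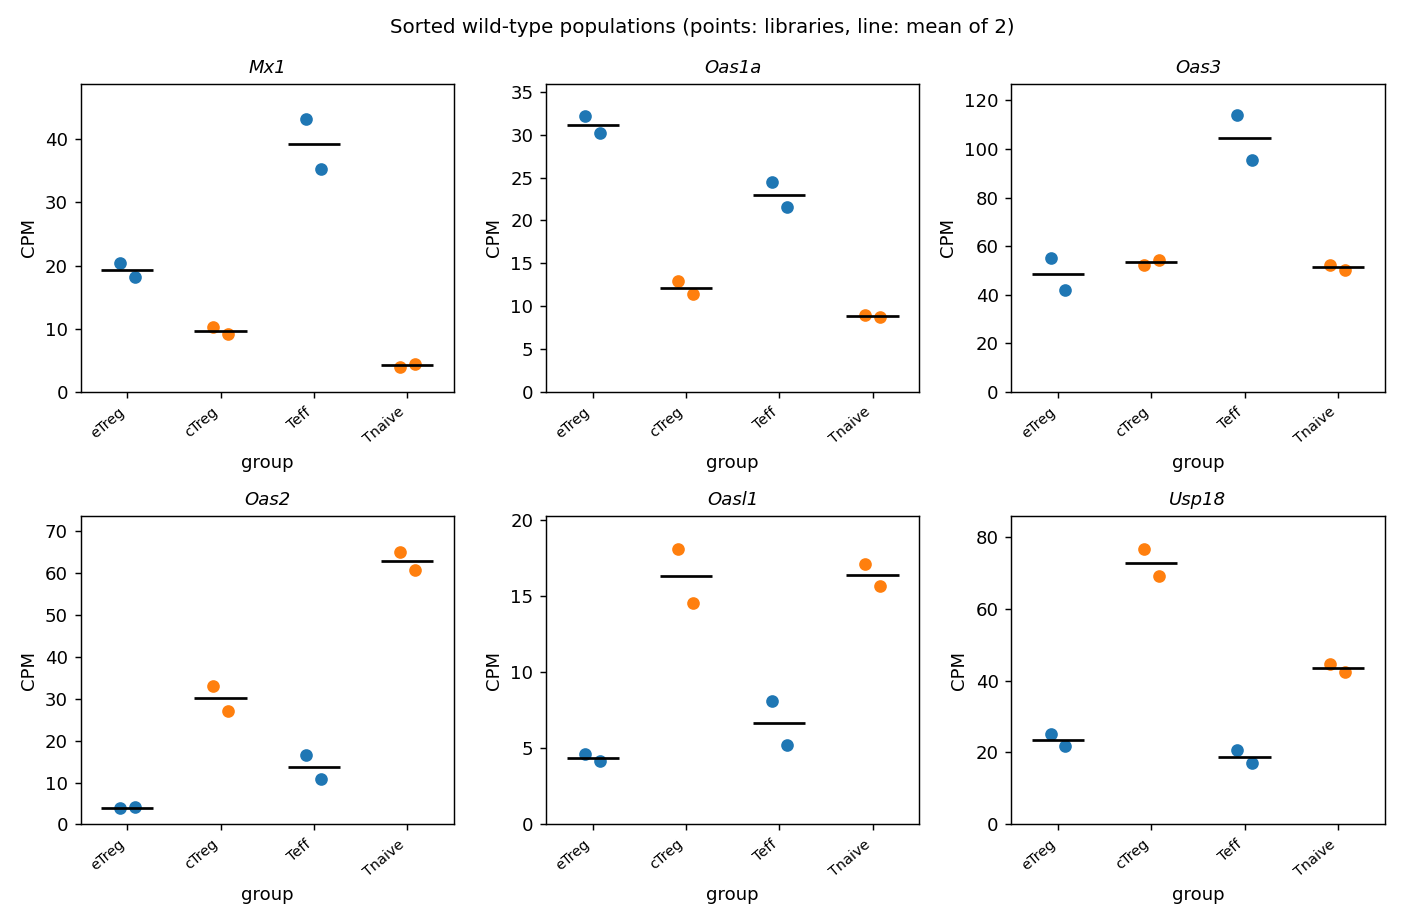
CPM of 6 members in eTreg, cTreg, Teff and Tnaive (points, single libraries; lines, means of 2; blue, effector; orange, resting). Mx1 and Oas1a are higher and Oas2, Oasl1 and Usp18 lower in both effector populations, and Oas3, called in Teff and not in eTreg, has its lower Teff library at 95.5 CPM.

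The sets of called members in these 2 comparisons, which share no libraries, overlapped. Higher in both were Mx1 and Oas1a, which are 100% of the 2 called higher in eTreg and 25% of the 8 called higher in Teff. Lower in both were Ifit2, Oas2, Oasl1 and Usp18, 44.4% of the 9 lower in eTreg and 100% of the 4 lower in Teff. Over all genes the called sets overlapped too, with 76.1% of those higher in eTreg and 67.5% of those higher in Teff shared, and 67.6% and 59% of those lower.

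Between resting cells, cTreg had 7 members higher than Tnaive and 0 lower (20.0%, against 12.2% of all genes, 7.91% higher and 4.29% lower), with a median of 0.25 and 29 of 35 positive. Fitted on its own 4 libraries, this comparison gave 20 members, 18 higher and 2 lower, with 25.9% of all genes called. The cTreg and Tnaive libraries here are those used above. Iigp1 had 114 and 113 CPM in cTreg, against 49.7 and 53.9 CPM in Tnaive, 1.13 ± 0.27 (edgeR adjusted p = 0.0075), and Mx1 rose by 1.19 ± 0.31 (edgeR adjusted p = 0.012). Usp18 rose by 0.74 ± 0.18 (edgeR adjusted p = 0.0067), and the Ifi27l2a change was 0.73 ± 0.17 (edgeR adjusted p = 0.0065), with 217 and 213 CPM in cTreg. For these genes both cTreg libraries lay above both Tnaive libraries. Isg20 rose by 0.77 ± 0.21, Igtp by 0.54 ± 0.16 and Parp14 by 0.44 ± 0.14, with edgeR adjusted p of 0.021, 0.035 and 0.046. With 1 library left out, 2 calls remained without cTreg library 1, 4 without cTreg library 2, 2 without Tnaive library 1 and 0 without Tnaive library 2, and the adjusted p of the lost calls ran from 0.051 to 0.26. Oas2 went the other way, with 33.1 and 27.1 CPM in cTreg, against 65.2 and 60.8 CPM in Tnaive, and just missed the threshold (-1.06 ± 0.35, edgeR adjusted p = 0.055). Eif2ak2 (0.68 ± 0.23) and Ifi44 (-0.61 ± 0.40) were not called.

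Between the effector populations, eTreg had 1 member higher and 5 lower than Teff (17.1%, against 15.5% of all genes, 8.21% higher and 7.26% lower), with a median of -0.06 that turned to 0.08 without Teff library 1 and was -0.17 without Teff library 2. Iigp1 was the one that was higher, with 112 and 95.3 CPM in eTreg, against 54.7 and 49.3 CPM in Teff, 0.998 ± 0.27 (edgeR adjusted p = 0.015). Lower were Oas3 (-1.11 ± 0.26, edgeR adjusted p = 0.0060), Mx1 (-1.02 ± 0.24, 0.0059), Oas2 (-1.77 ± 0.46, 0.011), Ddx58 (-0.45 ± 0.13, 0.026) and Oasl2 (-0.93 ± 0.30, 0.044). Oasl2 had 10.2 and 10.3 CPM in eTreg, against 20.6 and 18.5 CPM in Teff, and Ddx58 had 120.0 and 117 CPM, against 173 and 150.3 CPM in Teff. Here too 10 of 13 plasmacytoid dendritic cell markers were called, all lower in eTreg, with summed levels of 334 and 349 CPM in eTreg, against 758 and 353 CPM in Teff. The largest term of the eTreg sums was Pacsin1, with 158 and 178 CPM in eTreg, against 99.5 and 109 CPM in Teff. Siglech had 0 and 0 CPM in eTreg, against 92.3 and 20.0 CPM in Teff. The part of plasmacytoid dendritic cells, read by these markers, in the member values was not tested. No call was left without Teff library 1, where these markers were highest, and 4, 2 and 1 were left without Teff library 2, eTreg library 1 and eTreg library 2. Without Teff library 1 the changes themselves were -0.87 for Mx1, -0.98 for Oas3, -1.44 for Oas2 and 1.07 for Iigp1, with adjusted p of 0.060 to 0.12. Ifit3 (-0.65 ± 0.36), Oasl1 (-0.60 ± 0.45) and Rsad2 (-0.50 ± 0.29) were not called.

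Bulk WT Treg against Tconv gave 6 members higher and 2 lower (22.9%, against 18.7% of all genes, 12.1% higher and 6.68% lower), with a median of 0.14 that ran from 0.0041 without Tconv library 2 to 0.28 without WT Treg library 2. Fitted on its own 4 libraries, it gave 2 members, with 4.98% of all genes called. WT Treg libraries are also those set against BATFKO Treg. Ifi27l2a had 226 and 270.4 CPM in WT Treg, against 116 and 124 CPM in Tconv, 1.05 ± 0.18 (edgeR adjusted p = 0.00024). Oas2 had 25.97 and 21.0 CPM, against 97.8 and 77.4 CPM in Tconv, -1.89 ± 0.37 (edgeR adjusted p = 0.00097). These 2 calls held without any 1 of the 4 libraries. Iigp1 rose by 1.16 ± 0.30, Oas1a by 1.20 ± 0.33, Mx1 by 1.04 ± 0.32, Isg20 by 0.88 ± 0.23 and Eif2ak2 by 0.74 ± 0.24, and Ddx58 fell by 0.51 ± 0.13, with edgeR adjusted p of 0.0097 to 0.039. Each of these lost its call without some libraries. Without WT Treg library 1 or Tconv library 2 these were Iigp1 (adjusted p 0.19 and 0.099), Mx1 (0.35 and 0.19) and Eif2ak2 (0.37 and 0.34), and without WT Treg library 2 or Tconv library 1 they were Oas1a (0.13 and 0.13), Isg20 (0.099 and 0.097) and Ddx58 (0.11 and 0.15). Tconv is a mixture that includes naive and effector cells, and no share of either was measured. Of the 7 members higher in cTreg than Tnaive, Isg20, Mx1, Iigp1 and Ifi27l2a were also higher here (57.1% of 7 and 66.7% of 6, against 79% and 51.8% of all genes called higher), in comparisons that share no libraries. Ifi44 (-0.72 ± 0.54), Ifit2 (-0.53 ± 0.19) and Isg15 (0.46 ± 0.29) were not called.

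Over the 9 comparisons there were 50 calls among 315 member tests (15.9%, against 14.7% of all gene tests). Mx1 and Oas1a were each called in 5 comparisons, Oas2, Iigp1 and Ifi27l2a in 4, and 19 members in at least 1. The 16 members called in none were Ifit1 and Ifit3, Isg15, the ADP-ribosyltransferase Parp9 and its ubiquitin ligase partner Dtx3l, the tripartite motif protein Trim30a, the sensors and helicases Dhx58 and Ddx60, the signal transducer Stat2, and Bst2, Mx2, Samd9l, Irgm1, Ifi44, Xaf1 and Rtp4. Stat2, a subunit of ISGF3, had 159.7 and 248 CPM in BATFKO Treg, against 149.5 and 138 CPM in WT Treg, and its group means lay between 104.6 and 204 CPM.

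**Figure D5:**
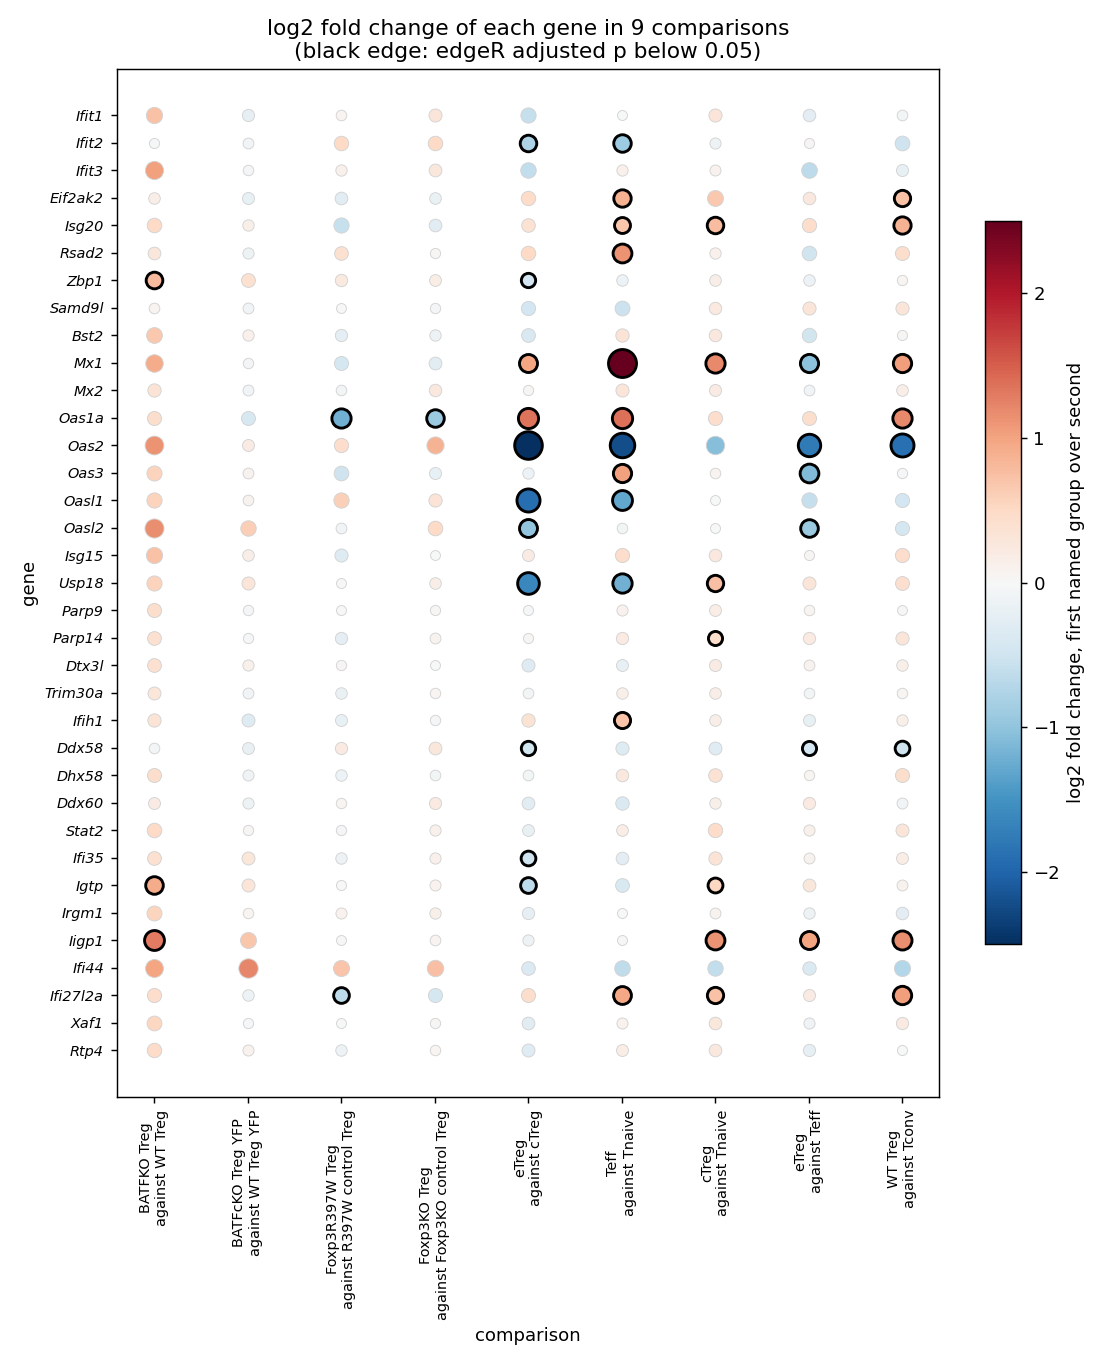
Log2 fold change of each of the 35 genes (rows) in the 9 comparisons (columns), first named group over second. Red is higher and blue lower, a larger disc is a larger change, and a black edge marks an edgeR adjusted p below 0.05. The BATFKO column is red for 33 of 35 genes with 3 edged discs, and the eTreg and Teff columns hold the largest discs, Oas2 in blue and Mx1 in red.

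The interferon genes themselves were hardly read. Of the 18 type I ligand genes counted, 13 had 0 reads in all 26 libraries and 0 passed the filter, and the 15 alpha and beta genes together had 6 reads, at most 1 in a library. Ifng, the gene of interferon gamma, had 8.51 and 6.05 CPM in eTreg, against 0.470 and 0.198 CPM in cTreg, and 25.3 and 46.6 CPM in Teff, against 0 and 0.0999 CPM in Tnaive. It rose in both (edgeR adjusted p = 3.3e-05 and 1.1e-08), was lower in eTreg than Teff (-2.30 ± 0.36, 0.00012) and was not called in BATFKO Treg, with 24.6 and 13.2 CPM, against 15.4 and 17.5 CPM in WT Treg.

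Among the receptor and signal transducer genes, the chains of the type I receptor moved between the sorted populations. Ifnar1 fell in eTreg against cTreg (-0.63 ± 0.09, edgeR adjusted p = 2.9e-05) and in Teff against Tnaive (-0.44 ± 0.09, 0.00092), while Ifnar2 rose in Teff (0.72 ± 0.09, edgeR adjusted p = 2.1e-06). Both chains were higher in cTreg than in Tnaive, Ifnar1 by 0.57 ± 0.09 and Ifnar2 by 0.64 ± 0.09 (edgeR adjusted p = 0.00020 and 2.6e-05), and in WT Treg than in Tconv, by 0.36 ± 0.09 and 0.72 ± 0.09 (0.010 and 1e-05). Ifngr2, a chain of the interferon gamma receptor, fell in eTreg (-1.77 ± 0.19, edgeR adjusted p = 6.6e-07) and in Teff (-3.02 ± 0.21, 1.4e-09), and was lower in WT Treg than in Tconv (-1.04 ± 0.18, 0.00041). It was higher in Foxp3KO Treg (0.82 ± 0.17, edgeR adjusted p = 0.0048) and in eTreg than in Teff (1.22 ± 0.21, 0.00032). Ifnar1 was also higher in eTreg than in Teff (0.38 ± 0.09, edgeR adjusted p = 0.0076). Irf9 fell in eTreg against cTreg (-0.35 ± 0.11, edgeR adjusted p = 0.024) and was called in no other comparison. Irf7, the factor that amplifies interferon production and is itself a response gene, was called in none. It had 85.0 and 245 CPM in BATFKO Treg, against 97.1 and 124 CPM in WT Treg, again with BATFKO library 2 high.

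Of 10 negative regulators, Samhd1, a dNTPase gene, was called higher in BATFKO Treg (0.55 ± 0.11, edgeR adjusted p = 0.0097), in cTreg against Tnaive (1.16 ± 0.12, 6.6e-07), in eTreg against Teff (0.76 ± 0.12, 0.00010) and in WT Treg against Tconv (1.10 ± 0.12, 1.1e-06), and lower in eTreg against cTreg (-0.60 ± 0.11, 0.00048). Socs3 fell in eTreg (-1.03 ± 0.21, edgeR adjusted p = 0.00070) and in Teff (-1.14 ± 0.21, 0.00024) and was higher in WT Treg than in Tconv (0.66 ± 0.21, 0.031). Socs1, which blocks Jak kinases, was higher in cTreg than Tnaive (1.53 ± 0.25, edgeR adjusted p = 0.00021) and in eTreg than Teff (0.81 ± 0.25, 0.031). Of 15 tested genes of the pathway that induces interferon, Irf5 was called higher in eTreg (2.44 ± 0.21), Teff (2.91 ± 0.26), cTreg against Tnaive (1.70 ± 0.27), eTreg against Teff (1.24 ± 0.20) and WT Treg against Tconv (3.52 ± 0.31), and lower in Foxp3R397W Treg (-1.13 ± 0.23) and Foxp3KO Treg (-1.73 ± 0.20), with edgeR adjusted p of at most 0.0050.

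A list of other genes known to respond to interferon was taken by name. Of 64 tested, 12 were called higher and 1 lower in BATFKO Treg, with a median of 0.28 (all genes, 1.05% higher and 1.64% lower), and 2 higher and 1 lower in BATFcKO Treg YFP, with a median of -0.01. In cTreg against Tnaive 17 were higher and 0 lower, where 7.91% of all genes were higher. Of 25 tested genes of the interferon gamma pathway, 9 were higher and 0 lower in BATFKO Treg, with a median of 0.43, and 3 were higher in BATFcKO Treg YFP, with a median of 0.24. Without BATFKO library 2 the genes of these lists called higher in BATFKO Treg numbered 8 and 5, without BATFKO library 1 they numbered 13 and 12, and without WT library 2 they numbered 4 and 5; these values were added after the data were seen. The guanylate-binding proteins, GTPases that coat pathogen vacuoles, led this list. Gbp2b rose by 2.62 ± 0.24 in BATFKO Treg (edgeR adjusted p = 3e-06) and by 1.91 ± 0.23 in BATFcKO Treg YFP (9.9e-05), Gbp11 by 1.67 ± 0.24 and 1.42 ± 0.24 (0.00033 and 0.0024), and Gbp2 by 1.14 ± 0.13 and 0.59 ± 0.13 (7.4e-05 and 0.026). The Gbp genes are close paralogs between which reads can be shared, so single values are uncertain. In other comparisons they did not share a direction: Gbp11 fell in eTreg against cTreg (-3.04 ± 0.27, edgeR adjusted p = 6.6e-08), where Gbp2b rose (2.66 ± 0.26, 1.8e-07).

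The members did not move as one. Over 26 libraries, with log2 CPM centred within each of the 5 sets of libraries, the correlation of a member with the mean of the other members was 0.92 for Xaf1 and 0.88 for both Stat2 and Rtp4, against 0.07 for Oas2 and -0.09 for both Ddx58 and Ifit2. Among the 595 pairs of members the median r was 0.39, with a range of -0.90 to 0.95, and 113 were negative. The libraries share depth, TMM scaling and BATFKO library 2, so these values are a description. Genes that are not members and were most like the mean member by the same measure included 2700081O15Rik (r = 0.85), Gbp9 (0.81), Adar (0.80), Gbp2 (0.78), Gbp4 (0.76), Fam129c (0.76), Wdr59 (0.73), Ncf1 (0.73) and Pml (0.72).

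For 12 of the 35 members the annotation places another gene over the locus, among them Parp9 and Dtx3l on opposite strands and Igtp with Irgm2 on the same strand. No source used here states whether reads were counted by strand, so values of these members, and of close paralogs such as Oasl1 and Oasl2, are uncertain to that degree. In these bulk samples, fewer cells of a type and less RNA per cell cannot be told apart.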

How the data were processed

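The authors deposited whole-number read counts for each gene of 26 libraries made from poly(A) RNA; per the submitters' processing notes, STAR 2.6.1c and mm10 were used. Another 4 columns, whose names fit none of the labels, were left out. The 2 tables differ in 0 values where they share a library.

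The edgeR filter on expression passed 12227 genes, with all 35 members, and left out 12184. After TMM scaling, the robust quasi-likelihood fit used all 26 libraries in 13 groups (edgeR 4.0.16, R 4.3.3; common dispersion 0.0147, 13 residual degrees of freedom). Each of 9 comparisons and 3 differences was a contrast, called at a Benjamini-Hochberg adjusted p below 0.05 over all tested genes. SEs are approximate, the size of the log2 change over the root of its F statistic, and p-values measure only the spread between these libraries, which may be technical. The code was tested on simulated data. Alternatives were median-ratio scaling, library totals, no filter, DESeq2 1.42.0, a fit on each comparison's own libraries, a block for library number and leaving out each library. Promoter windows came from RefSeq, and positions from GENCODE M21, both on GRCm38.

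The members and gene lists were chosen with earlier results of these data known. In each comparison all called members and up to 3 uncalled members of largest change are named, from other lists up to 6 called genes a comparison, and Irf7 and Irf9 always; 1 further gene that this rule names is not reported here.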

Additional observations from a re-analysis of the deposited data

Results flagged for a closer look

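The change of Mx1 between effector and resting cells differed between Treg and conventional cells, by a test of the difference itself. Mx1 had 20.4 and 18.2 CPM in eTreg, against 10.2 and 9.11 CPM in cTreg, and 43.2 and 35.3 CPM in Teff, against 3.97 and 4.49 CPM in Tnaive. The log2 change in Treg minus that in conventional cells was -2.215 ± 0.39 (edgeR adjusted p = 0.0012, 2 libraries a group). It kept its direction and its call in all 14 alternatives, between -2.36 and -2.07. Of 13 plasmacytoid dendritic cell markers 10 were also higher in Teff than in Tnaive, and their part in this difference was not tested.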

How the results depend on the processing

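None of the 51 called member results reversed, while 3 values of named members that were not called changed sign under an alternative. The 51 called member results had 536 values under alternatives, of which 432 kept the call and 104 lost it, and 17 results kept it in every alternative. The median change of members, which has no test, changed sign when 1 library was left out in BATFcKO Treg YFP (-0.15 to 0.19), Foxp3R397W Treg (-0.22 to 0.11), Teff against Tnaive (-0.04 to 0.22) and eTreg against Teff (-0.17 to 0.08). A paired reading rests on the library numbers, which the labels do not say mark a shared animal or day, and only 2 numbers are shared. Same-numbered libraries deviated together with r of 0.49 to 0.57 in the germline set, 0.24 in the YFP set and 0.08 to 0.23 in the sorted set. With the replicate block members called numbered 13 in BATFKO Treg (3 without it), 3 in BATFcKO Treg YFP (0), 4 in Foxp3R397W Treg (2), 4 in Foxp3KO Treg (1), 17 in eTreg against cTreg (11), 19 in Teff against Tnaive (12), 15 in cTreg against Tnaive (7), 10 in eTreg against Teff (6, of which Oas2 and Oasl2 were then not called), 13 in WT Treg against Tconv (8), 3 in the difference of the BATF deletions (0) and 2 in that of activation (1). The block had terms for the germline, YFP and sorted sets only. The Foxp3R397W Treg and Foxp3KO Treg counts therefore moved through the shared estimate of the spread and not through a pairing of their libraries. All genes called with the block numbered 1036 in BATFKO Treg, against 329 without it. Other counts in this section stand without the all-gene number, so they show dependence on the fit and are no result about the members. In the fit on own libraries, which has 2 residual degrees of freedom for a pair of groups, the counts were 0 in BATFKO Treg, 5 in Foxp3R397W Treg, 11 in Foxp3KO Treg, 26 in eTreg against cTreg, 20 in cTreg against Tnaive, 2 in WT Treg against Tconv and 6 in the activation difference. BATFKO Treg gave 7 with no expression filter and 6 with DESeq2. In alternatives chosen after seeing the data, BATFKO Treg gave 1 with only germline libraries numbered 1, which was Iigp1, and 20 with only those numbered 2. Leaving out 1 library gave 1 to 17 members in BATFKO Treg, 0 to 0 in BATFcKO Treg YFP, 0 to 0 in Foxp3R397W Treg, 0 to 1 in Foxp3KO Treg, 7 to 9 in eTreg against cTreg, 8 to 12 in Teff against Tnaive, 0 to 4 in cTreg against Tnaive, 0 to 4 in eTreg against Teff and 5 to 6 in WT Treg against Tconv; the cause was not tested. With 2 libraries a group, low members such as Ifi44, at 1.14 to 6.01 CPM, are measured least precisely.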
